A study of Homo sapiens with 4 samples.

Results

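The zinc finger genes of chromosome 19 were taken as all protein-coding genes of this chromosome in GENCODE release 44 whose symbol is *ZNF* followed by a number and an optional letter. This gave 246 of 20033 protein-coding genes, which are called the members here. Each was examined for peaks of H3K27ac (acetylation of histone H3 at lysine 27, found at promoters and enhancers in use) within 1000 bp of a start site of its protein-coding transcripts, and over the 50% of the gene body nearest its 3′ end. The cells were SK-N-BE(2)C, a human neuroblastoma line with *MYCN* amplification. The comparison was between cells given a non-targeting guide RNA (sgCtrl, 2 samples) and cells given guide RNAs against the long non-coding RNA *SNHG1* (sgSNHG1, 2 samples). Both groups were given constructs for Cas9 and guide RNA with surrogate reporter plasmids, were selected with puromycin for 3 to 7 days, were sorted to single cells and were grown as clones for 1 to 2 weeks. The groups are therefore single-cell clones, and the sgSNHG1 clone used for ChIP-seq is not named in the sources used here. The authors combined both samples of a group before peak calling, so each group is 1 list of peaks, no spread between samples is known, and no difference between the lists could be tested.

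Most genes of this family encode proteins with a row of C2H2 zinc fingers, each of which can contact a few bases of DNA, and many carry a KRAB box in front of the fingers. KRAB zinc finger proteins bind transposable elements and other sequences, and recruit TRIM28 (KAP1) with the histone methyltransferase SETDB1, HP1 proteins and histone deacetylases, which silence the bound region. The genes arose by tandem duplication and stand in clusters on chromosome 19, and their long 3′ exons, which encode the fingers, are known to carry the repressive mark H3K9me3 in many cell types. In the annotated coding sequences, 210 of the 246 members held a KRAB A box pattern, and the number of C2H2 fingers in the canonical protein ranged from 1 to 39 with a median of 13.

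The members fell into 20 clusters when genes less than 500 kb apart were joined, and the clusters differed in the sequence ahead of their start sites. Of the 246 members, 216 had a promoter in the RefSeq table (GRCh38.p14, 250 bases before to 50 bases after the start, and the first listed where a gene had several), beside 15345 promoters of protein-coding genes in all. The word TCCAATCA, which holds a CCAAT box, was present on either strand in 52 of the 216 member promoters (24.1%) and in 1.82% of all promoters. It was found in all 29 matched promoters of the cluster from *ZNF101* to *ZNF254*, in 19 of 24 of the cluster from *ZNF653* to *ZNF791*, in 4 of 5 of the cluster from *ZNF554* to *ZNF77*, and in 0 of the others. The word TCTGGGAA was present in 38 member promoters (17.6%) and in 2.76% of all promoters, among them 14 of 19 in the cluster from *ZNF575* to *ZNF180* and 12 of 25 in the cluster from *ZNF565* to *ZNF573*. No member promoter held both words. Both were chosen after the counts were seen, among the 20 words of 8 bases that were found in at least 25 members and were most over-represented in them, as the most frequent word in members with a promoter peak in both lists and in those with none. The 120 bases before the RefSeq start are shown for members of the first kind, with the word in capitals on the strand of the gene (TCCAATCA or its reverse complement TGATTGGA). They are *ZNF136* and *ZNF490*, with high enrichment in both lists, *ZNF878* and *ZNF439*, with a peak in sgCtrl only, and *ZNF492*, with a peak in sgSNHG1 only.

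ZNF136 (chr19:12162976-12163095, plus strand): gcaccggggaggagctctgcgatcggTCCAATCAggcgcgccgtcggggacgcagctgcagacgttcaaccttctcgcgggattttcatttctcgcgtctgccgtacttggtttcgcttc
ZNF490 (chr19:12610814-12610933, minus strand): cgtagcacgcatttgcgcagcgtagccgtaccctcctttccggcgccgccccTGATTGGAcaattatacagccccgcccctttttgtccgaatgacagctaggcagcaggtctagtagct
ZNF878 (chr19:12052962-12053081, minus strand): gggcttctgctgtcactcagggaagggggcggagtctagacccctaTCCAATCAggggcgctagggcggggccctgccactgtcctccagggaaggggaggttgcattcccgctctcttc
ZNF439 (chr19:11848606-11848725, plus strand): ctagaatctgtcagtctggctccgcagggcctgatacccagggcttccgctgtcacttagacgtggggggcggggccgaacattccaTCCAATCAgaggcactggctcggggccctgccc
ZNF492 (chr19:22634204-22634323, plus strand): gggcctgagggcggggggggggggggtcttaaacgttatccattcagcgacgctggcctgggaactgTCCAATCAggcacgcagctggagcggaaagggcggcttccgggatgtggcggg

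Members with the word TCCAATCA mostly had a promoter peak, in 49 of 52 (94.2%) in sgCtrl and 47 (90.4%) in sgSNHG1, against 98 (59.8%) and 109 (66.5%) of the 164 matched members without it. Among members with a peak in both lists, 45 of 140 held it (32.1%), and among those with none in either list 1 of 53 (1.89%). Members with the word TCTGGGAA less often had a peak, in 13 of 38 (34.2%) in sgCtrl and 19 (50%) in sgSNHG1. The word was in 13 of 140 members with a peak in both lists (9.29%) and in 19 of 53 with none (35.8%). Of these 19, 14 stood in 1 run of neighbouring members, from *ZNF283* to *ZNF180*, so the contrast rests largely on that run. These counts are no test, since the words were chosen on them and since promoters of a cluster are related by duplication. The same stretch is shown for 2 members without a peak in either list, *ZNF224* and *ZNF180*, with TCTGGGAA in capitals.

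ZNF224 (chr19:44094241-44094360, plus strand): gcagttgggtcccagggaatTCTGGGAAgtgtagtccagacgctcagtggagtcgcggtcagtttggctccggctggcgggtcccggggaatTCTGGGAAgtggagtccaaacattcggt
ZNF180 (chr19:44500523-44500642, minus strand): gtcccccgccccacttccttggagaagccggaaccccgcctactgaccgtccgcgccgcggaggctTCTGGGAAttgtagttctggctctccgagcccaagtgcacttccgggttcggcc

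The 2 members with a peak in sgSNHG1 only that are shown next, *ZNF540* and *ZNF568*, held neither word in this stretch, and the table's promoter of *ZNF568* holds TCTGGGAA farther upstream.

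ZNF540 (chr19:37551254-37551373, plus strand): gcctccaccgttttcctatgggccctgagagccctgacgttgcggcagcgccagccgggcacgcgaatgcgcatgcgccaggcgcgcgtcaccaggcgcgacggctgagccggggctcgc
ZNF568 (chr19:36916212-36916331, plus strand): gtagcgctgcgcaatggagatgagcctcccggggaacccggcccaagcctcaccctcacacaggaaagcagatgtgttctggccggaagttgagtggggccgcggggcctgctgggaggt

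The ratio of observed to expected CpG in promoters did not separate members with peaks from members without them in the way it did for other genes. Over 500 bp on either side of the canonical start, the median ratio of observed to expected CpG was 0.712 in members with a peak in both lists and 0.716 in members with none. Among all protein-coding genes it was 0.794 with a peak in both lists and 0.302 with none, and *ZNF* genes of other chromosomes lay between, with 0.781 and 0.597. A ratio above 0.6 was present in 85.1% of the 67 members without a peak and in 26.1% of the 6265 protein-coding genes without one. The G + C content was lower in members without a peak, at a median of 54.5% against 59.7%. It was also lower among all protein-coding genes without a peak, at 51.45% against 64.74% with a peak in both lists. Most words of 32 bases in these windows occurred once in the genome, with a median over members of 99.0% overall and 99.7% in members without a peak.

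A promoter peak was present in 158 of 246 members in sgCtrl (64.2%, 95% Wilson interval 58.1% to 70.0%) and in 172 in sgSNHG1 (69.9%, 63.9% to 75.3%). The shares over all protein-coding genes were 65.1% and 64.2%. Other protein-coding genes of chromosome 19 had a promoter peak in 56.8% and 54.6%, and the 262 *ZNF* genes of other chromosomes in 80.2% and 82.8%. These intervals cover counting error over genes only. In both lists 151 members had a peak. A peak in sgCtrl only was found in 7 members (2.85%, beside 4.57% of all genes), and a peak in sgSNHG1 only in 21 members (8.54%, interval 5.65% to 12.7%, beside 3.66% of all genes). The latter share was 4.72% for other genes of chromosome 19 and 3.82% for *ZNF* genes elsewhere. No peak in either list was found for 67 members (27.2%, beside 31.3% of all genes). Across all genes the balance went the other way, with more genes in the sgCtrl list only than in the sgSNHG1 list only.

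The height of a peak is given as fold enrichment, the ratio of its summit to the local background that the peak caller estimated. The number of fragments over the summit was recovered from the fold enrichment and the p-value, and shows how few fragments these calls rest on. The median promoter fold enrichment of members was 6.50 in sgCtrl and 6.86 in sgSNHG1, close to the medians of all genes, 6.32 and 6.80. The median number of fragments was 45 in sgCtrl and 51 in sgSNHG1, against 81 and 86 over all genes. It ranged from 22 to 197 in sgCtrl and from 20 to 240 in sgSNHG1, and the smallest peaks of the whole lists held 19 and 18 fragments.

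**Figure D1:**
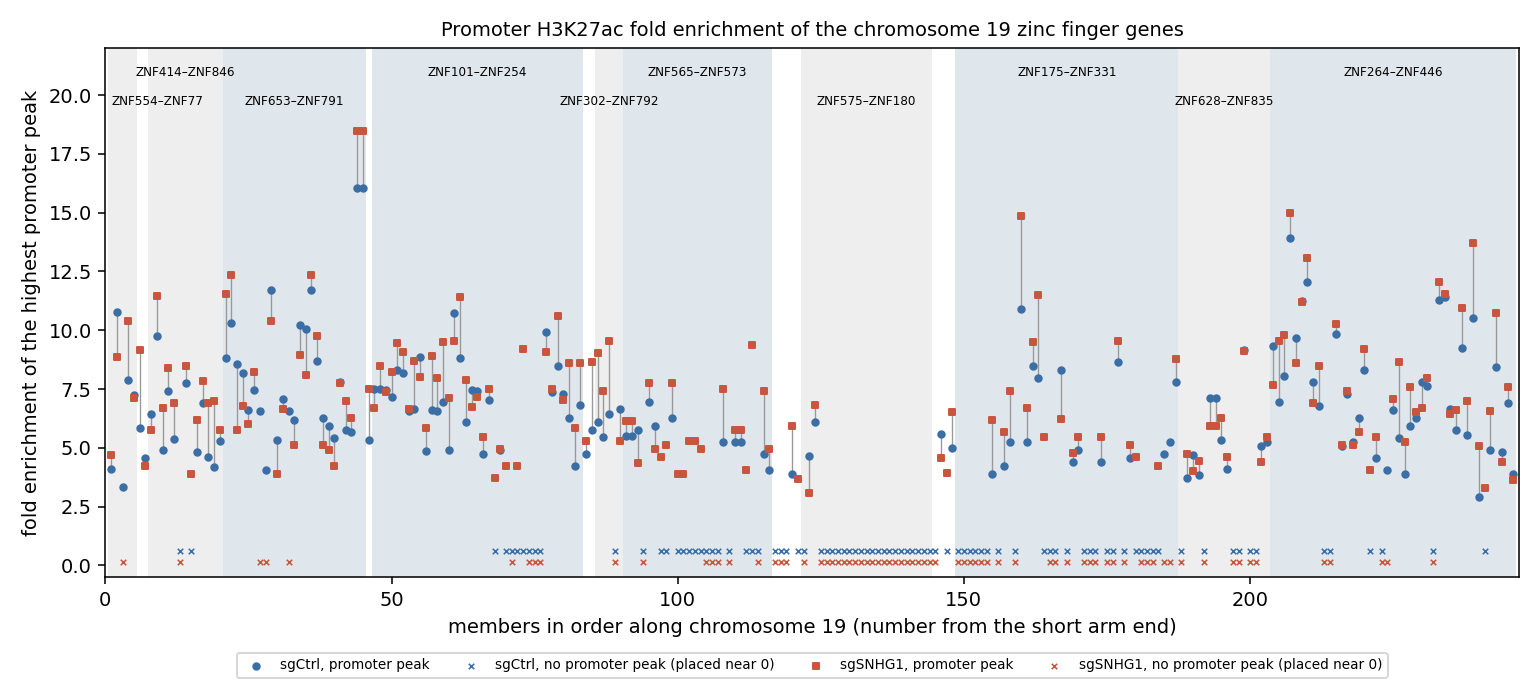
Fold enrichment of the highest promoter peak of each member in sgCtrl (circles) and sgSNHG1 (squares), with members in order along chromosome 19, clusters of 5 or more members shaded, and crosses near 0 for members without a promoter peak. The 2 members at 16.1 and 18.5 are *ZNF490* and *ZNF791*, and the unbroken row of crosses in both lists is the run of 20 members from *ZNF283* to *ZNF180*.

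The highest member promoter in both lists was a single peak at chr19:12610972-12611438 in sgCtrl, just downstream of a start of *ZNF791* and within 1000 bp of a start of *ZNF490*, which is on the opposite strand. Its fold enrichment was 16.1 in sgCtrl with 196 fragments and 18.5 in sgSNHG1 with 238 fragments. *ZNF543* followed with 13.9 and 15, and *ZNF548* with 12 and 13.1. *ZNF700* had 11.7 in sgCtrl and 10.4 in sgSNHG1, and *ZNF136* 11.7 and 12.4. *ZNF606* had 11.4 and 11.6, and *ZNF256* 11.3 and 12.1. *ZNF700* was the one of these 8 members with a lower value in sgSNHG1.

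Several members with known roles had a promoter peak in both lists. *ZNF91* and *ZNF93*, which bind SVA and LINE-1 retrotransposons, had fold enrichments of 8.46 and 8.30 in sgCtrl and 10.6 and 9.48 in sgSNHG1, above the upper quartile of members with a promoter peak, 7.86 and 8.67. *ZNF274*, whose protein binds the 3′ exons of other zinc finger genes and recruits SETDB1 there, had 9.25 and 11, with 69 and 94 fragments, also above it. The imprinted gene *ZNF331* had 7.81 and 8.77. *ZNF382* had 5.94 and 4.95, with 34 and 27 fragments. *ZNF536*, a neuronal zinc finger gene without a KRAB box, had 4.75 and 5.30, with 88 and 118 fragments. *ZNF350*, whose protein binds BRCA1, and *ZNF649* had no promoter peak in either list, and *ZNF420*, a regulator of p53, and *ZNF568*, whose mouse counterpart represses a placental transcript of *Igf2*, had one in sgSNHG1 only.

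The member with the most fingers, *ZNF729* with 39, had no promoter peak in either list. *ZNF208*, with 36, had a peak of 20 fragments in sgSNHG1 only, and *ZNF91*, with 32, had one in both lists. Among the 82 members with 15 or more fingers, 52.4% had a promoter peak in sgCtrl and 59.8% in sgSNHG1, against 72.9% and 79.7% of the 59 members with 12 to 14 and 68.6% and 72.4% of the 105 with 11 or fewer. Members with the KRAB pattern had a peak in 62.9% and 67.6%, and the 36 members without it in 72.2% and 83.3%, with Wilson intervals that overlap in both lists.

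Promoter peaks of the members lay inside the gene, just downstream of the start. The share of members under a peak was highest at 300 bp into the gene, at 53.7% in sgCtrl and 56.9% in sgSNHG1. This position is not particular to members. In sgCtrl the share was also highest at 300 bp over all genes (49.6%), other genes of chromosome 19 (36.9%) and *ZNF* genes elsewhere (67.6%). At the start itself the share of members was 2.03% in sgCtrl and 4.88% in sgSNHG1, where all genes had 14.2% and 16.1%. On the upstream side, at 500 bp before the start, it was 4.07% and 8.13%, where all genes had 13.6% and 16.4%. Other genes of chromosome 19 were nearer to the members, with 6.75% and 9.35% at 500 bp before the start and 7.56% and 7.32% at the start. *ZNF* genes elsewhere had 17.9% at 500 bp before the start and 14.1% at the start in sgCtrl. The summit lay downstream of the nearest start in 138 of 158 members in sgCtrl (87.3%) and 147 of 172 in sgSNHG1 (85.5%), at a median distance of 266.5 bp and 237 bp. The median length of the highest promoter peak was 459 bp in sgCtrl and 492.5 bp in sgSNHG1. When a peak had to overlap the start site, 31 members had one in sgCtrl (12.6%, beside 32% of all genes) and 50 in sgSNHG1 (20.3%, beside 33.5%).

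**Figure D2:**
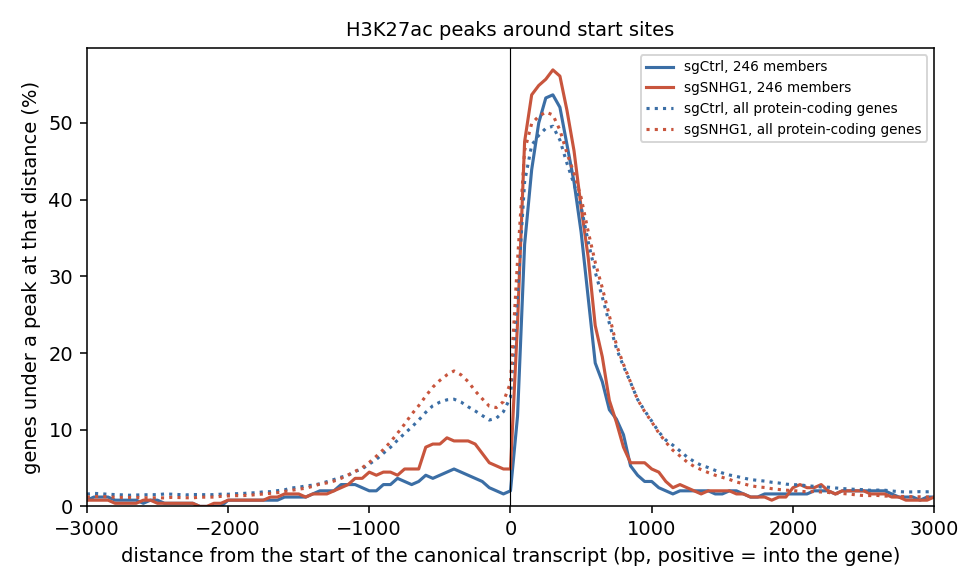
Percentage of genes under an H3K27ac peak (vertical axis) at each distance from the start of the canonical transcript (horizontal axis, bp, positive into the gene), for the 246 members (solid lines) and all protein-coding genes (dotted lines) in sgCtrl and sgSNHG1. The members reach 53.7% and 56.9% at 300 bp downstream and at 500 bp upstream stand at 4.07% and 8.13%, below the 13.6% and 16.4% of all genes.

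The clusters differed widely in how many members had a promoter peak. In the cluster from *ZNF653* to *ZNF791* all 25 members had one in sgCtrl and 22 in sgSNHG1. In the cluster from *ZNF264* to *ZNF446*, at the end of the long arm, 37 of 43 had one in sgCtrl and 38 in sgSNHG1. Within the cluster from *ZNF101* to *ZNF254*, 29 of 37 had one in sgCtrl and 33 in sgSNHG1, and 21 consecutive members from *ZNF101* to *ZNF43* had one in both lists. In the cluster from *ZNF175* to *ZNF331*, 16 of 39 had one in sgCtrl and 17 in sgSNHG1. The cluster of *ZNF546*, *ZNF780B* and *ZNF780A*, named after its values were seen, had 0 in both lists.

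The longest run of members without a peak was 20 consecutive members from *ZNF283* to *ZNF180*, at chr19:43827321-44500524 in GRCh38 (673.2 kb). No peak of any kind lay in this run in either list. The nearest peaks ended 71.8 kb before it and began 143 kb after it in both lists, so that 888 kb were free of peaks, with 7 other protein-coding genes. This was the 4th longest stretch without a peak on chromosome 19, and no longer one had a whole member inside it. Of the 16 promoters of this run in the RefSeq table, 14 held TCTGGGAA. These 14 are part of the count in members without a peak by which the word was chosen. Their start windows had a median CpG ratio of 0.709, near that of all members, and a median of 99.8% of their words of 32 bases occurred once in the genome. The lists give no value where no peak was called, so the depth and the copy number of this region are not known from them. Without these 20 members, 158 of 226 members had a promoter peak in sgCtrl (69.9%) and 172 in sgSNHG1 (76.1%).

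The 21 members with a promoter peak in sgSNHG1 only were not spread evenly. Of these, 9 stood in the cluster from *ZNF565* to *ZNF573*, where 11 of 26 members had a peak in sgCtrl and 20 in sgSNHG1. The 9 were *ZNF461*, *ZNF567*, *ZNF790*, *ZNF345*, *ZNF829*, *ZNF568*, *ZNF420*, *ZNF793* and *ZNF540*, of which those outside the rule for named genes were named after their values were seen. The 5 consecutive members from *ZNF790* to *ZNF420* lay in 312.9 kb without any sgCtrl peak and with 3 sgSNHG1 peaks, of which 1 was shared by *ZNF790* and *ZNF345* and 1 by *ZNF829* and *ZNF568*. The nearest sgCtrl peak was 153 kb from a start of *ZNF420*. All peaks in this cluster numbered 15 in sgCtrl and 35 in sgSNHG1. Among the 6 other protein-coding genes of the same interval, 3 had a promoter peak in sgCtrl and 4 in sgSNHG1. The added gene was *ENSG00000291239*, which shares the sgSNHG1 peak of *ZNF790* and *ZNF345*, so it is no separate gain. Outside this cluster, 12 of 220 members had a promoter peak in sgSNHG1 only (5.45%) and 7 in sgCtrl only (3.18%).

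Of the peaks behind these 21 members, that of *ZNF540* stood highest, at chr19:37550464-37551820, with a fold enrichment of 9.39, 78 fragments and a −log10 p of 51.4. *ZNF492* had a peak at chr19:22634364-22634813 with a fold enrichment of 9.19, 51 fragments and a −log10 p of 35.1. *ZNF528* had 30 fragments and a −log10 p of 15.2, and *ZNF526* 48 fragments and 14.7. The peak shared by *ZNF829* and *ZNF568* had 29 fragments and 14.3. The 21 members had 19 distinct peaks, with a median of 25 fragments, and for 9 members the −log10 p was below 10, near the threshold of 6 that the authors set. In 20 of the 21 no sgCtrl peak lay within 3 kb of a start site, and *ZNF526*, whose peak also lay near a start of *DEDD2*, had one at 1.02 kb.

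A promoter peak in sgCtrl only was found in *ZNF439*, *ZNF69* and *ZNF878* of the cluster from *ZNF653* to *ZNF791*, and in *ZNF556*, *ZNF761*, *ZNF813* and *ZNF671*. *ZNF439* had 50 fragments at chr19:11848859-11849288 and a fold enrichment of 6.57, and *ZNF878* 43 fragments at chr19:12052426-12052797 and a fold enrichment of 6.58. The other 5 had 23 to 30 fragments and fold enrichments of 3.32 to 5.26. No sgSNHG1 peak lay within 3 kb of a start site of any of the 7.

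In the 151 members with a promoter peak in both lists, the fold enrichment differed little. The median log2 ratio of sgSNHG1 over sgCtrl was 0.16, against 0.05 for all 12119 genes with a peak in both lists, a difference of 0.11. Other genes of chromosome 19 had a median log2 ratio of 0.11, so that the members stood 0.045 above their own chromosome. The ratio was above the median of all genes in 99 of 151 members (65.6%), and 143 members lay within 1.5-fold of that median. It was above that median in 59.1% of other genes of chromosome 19 and in 56.5% of *ZNF* genes elsewhere. For 10 members the highest peaks of the lists did not overlap, so that different peaks were compared. How often this happens over all genes was not counted.

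A difference of 1.5-fold or more above the median of all genes was found in 6 members (3.97%, beside 1.83% of all genes), and one below it in 2 (1.32%, beside 1.41%). The 5 largest ratios upward were those of *ZNF497*, at 2.92 in sgCtrl and 5.09 in sgSNHG1, *ZNF562*, at 4.19 and 6.98, *ZNF586*, at 5.43 and 8.66, *ZNF614*, at 3.90 and 6.19, and *ZNF557*, at 5.85 and 9.17. *ZNF607*, at 4.75 and 7.42, was the other of the 6 and was named after its values were seen. In fragments these were few, for example 30 and 67 for *ZNF562*, 37 and 68 for *ZNF557*, and 22 and 34 for *ZNF614*. The 5 largest downward were those of *ZNF576*, at 4.65 and 3.08, *ZNF823*, at 8.58 and 5.74, *ZNF763*, at 5.33 and 3.89, *ZNF808*, at 8.31 and 6.24, and *ZNF566*, at 5.77 and 4.36. For *ZNF576* and *ZNF566* the highest peaks of the lists did not overlap. The 95% interval of the fragment ratio, which covers counting error only, lay above the median ratio of all genes for 12 of the 151 members and below it for 5. It did so for 10.5% and 12.9% of the 11972 genes with such an interval. These shares cannot be compared directly, since fewer fragments give wider intervals. Members had a median of 45 fragments in sgCtrl and 51 in sgSNHG1, against 81 and 86 over all genes.

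The direction differed between clusters. In the cluster from *ZNF653* to *ZNF791*, 13 of 22 members lay below the median ratio of all genes, with a median log2 difference of -0.16. The 10 other genes of that interval with a peak in both lists had 0.05. In the cluster from *ZNF175* to *ZNF331*, 13 of 14 lay above it, with a median of 0.19. In the cluster from *ZNF414* to *ZNF846*, 10 of 11 lay above it, with a median of 0.18. The other genes had 0.07 and 0.18 there, but only 3 in each interval had a peak in both lists. The other genes between *ZNF414* and *ZNF846* include the read-through gene *ZNF559-ZNF177*, so members and other genes may share peaks. Between *ZNF653* and *ZNF791*, *ENSG00000267179* shares a promoter peak with *ZNF700* in both lists, and *ENSG00000269755* shares one with *ZNF709*. The value of 0.05 there may thus rest in part on peaks of members. Neighbouring members share chromosomal copy number and, in part, peaks, so that they are not independent, and the difference between clusters was not tested.

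**Figure D3:**
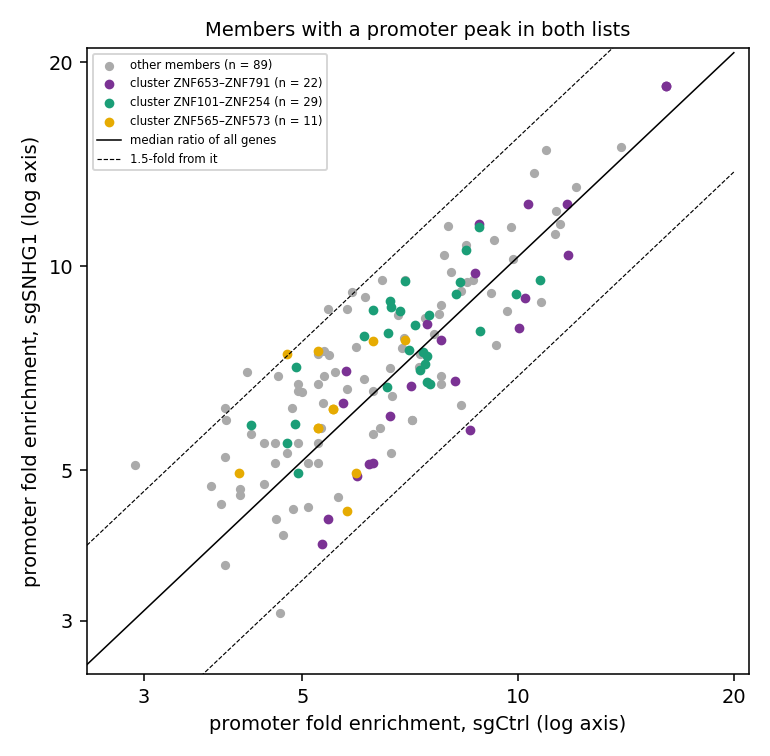
Promoter fold enrichment in sgSNHG1 (vertical, log axis) against sgCtrl (horizontal, log axis) for the 151 members with a promoter peak in both lists, coloured for 3 clusters, with the median ratio of all genes (solid line) and 1.5-fold above and below it (dashed). Most members lie between the dashed lines, and 13 of the 22 members of the cluster from *ZNF653* to *ZNF791* lie below the solid line.

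Over the 3′ part of the gene body, leaving out peaks within 1000 bp of any protein-coding start site, members rarely had a peak. At least 1 peak was found for 19 members in sgCtrl (7.72%, interval 5.00% to 11.7%) and 17 in sgSNHG1 (6.91%, 4.36% to 10.8%). In either list it was 23 members (9.35%, beside 34.6% of all genes). Other genes of chromosome 19 had 38.9% and *ZNF* genes of other chromosomes 37.4%. The median gene length was 25.9 kb for members, 13.9 kb for other genes of chromosome 19 and 27.1 kb for *ZNF* genes elsewhere. Of the bases in the 3′ part, with peaks near start sites counted, 0.797% of those of members lay under sgCtrl peaks, against 1.51% for all genes, 1.70% for *ZNF* genes elsewhere and 4.40% for other genes of chromosome 19. The last coding exon, which for most members encodes the fingers and had a median length of 1529 bp, carried a peak, those near start sites included, in 14 members in sgCtrl (5.69%) and 13 in sgSNHG1 (5.28%), beside 13.5% and 9.95% of all genes. A 3′ peak in sgCtrl only was found in 6 members (2.44%, beside 9.36% of all genes) and in sgSNHG1 only in 4 (1.63%, beside 2.36%).

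The 23 members with a 3′ peak were of 2 kinds. In 14 the peak lay on the last coding exon, and in these the G + C content of that exon was 62.7% to 74.97%, with a median of 70.9%. In the other 9 the peak lay elsewhere, the exon had 35.0% to 47.9% G + C, and the genes were 25.7 kb to 489 kb long. Among these 9, the last coding exon of *ZNF536* has 5 bp, so its composition means little. Members without a 3′ peak had a median of 40.7%. Of the 27 members whose last coding exon had more than 55% G + C, 14 had a 3′ peak (51.9%), and of the other 219 members 9 had one (4.11%), with 0 on the last coding exon. This limit was set after the values were seen. The 27 include short last coding exons, of 71 bp in *ZNF414*, 151 bp in *ZNF541* and 175 bp in *ZNF653*. The KRAB pattern was present in 4 of the 27 and in 206 of the 219. The 14 genes had a median length of 9.56 kb, and the part of length, composition or the KRAB box in this difference was not tested.

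The highest 3′ peak of a member was that of *ZNF536*, the longest member at 489 kb, which held 13 peaks in sgCtrl and 8 in sgSNHG1 over its 3′ part. The tallest, at chr19:30566519-30567437, had a fold enrichment of 6.83 with 133 fragments in sgCtrl and 6.58 with 118 fragments in sgSNHG1. On the last coding exon, *ZNF784* had 5.60 in sgCtrl and 5.61 in sgSNHG1, with 42 and 39 fragments, and *ZNF579* had 5.75 and 4.12, with 78 and 45 fragments. *ZNF837* had 4.93 and 3.70, with 55 and 32 fragments. *ZNF428* had a peak of 4.99 with 30 fragments in sgSNHG1 only. Elsewhere in the 3′ part, *ZNF709* had 5.77 and 4.07, with 33 and 22 fragments, *ZNF700* had 4.92 and 4.07, and *ZNF726* had 4.24 and 4.95. Of the 13 members with a 3′ peak in both lists, 9 had a lower value in sgSNHG1, with a median log2 ratio of -0.21. Over all 4581 genes with such peaks in both lists the median was -0.11 and 68.6% were lower.

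Among the 67 members with no promoter peak, the 5 with the longest last coding exon were *ZNF729* (3503 bp), *ZNF628* (3170 bp), *ZNF845* (2768 bp), *ZNF836* (2666 bp) and *ZNF112* (2501 bp). *ZNF628*, the one of these without a KRAB pattern, held 2 sgCtrl peaks on that exon, the taller with a fold enrichment of 2.57 and 83 fragments. The other 4 had no 3′ peak in either list.

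The listed genes that act with KRAB zinc finger proteins all had a promoter peak in both lists. Of 22 such genes, 22 had one in each, beside 65.1% of all protein-coding genes in sgCtrl and 64.2% in sgSNHG1. The median log2 difference of the 22 from all genes was 0.04. *TRIM28*, the co-repressor that KRAB boxes bind, had a fold enrichment of 5.66 in sgCtrl and 6.50 in sgSNHG1. *SETDB1*, the methyltransferase, had 3.94 and 3.95. The histone deacetylase genes *HDAC1* and *HDAC2* had 4.50 and 12.2 in sgCtrl and 4.57 and 12.1 in sgSNHG1. *DNMT1*, the maintenance DNA methyltransferase, had 8.44 and 10.2. *ATRX*, a chromatin remodeller, was the one gene of the list 1.5-fold or more from the median, at 7.13 in sgCtrl and 11.7 in sgSNHG1, with 41 and 65 fragments, and 0 genes were as far below it. *DAXX*, the partner of ATRX, had 4.96 and 3.79. The other genes of the list, *ATF7IP*, *CBX1*, *CBX3*, *CBX5*, *CHD3*, *CHD4*, *UHRF1*, *MORC2*, *MORC3*, *TASOR*, *MPHOSPH8*, *PPHLN1*, *SMARCAD1*, *SUV39H1* and *EHMT1*, lay within 1.5-fold of the median.

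The lists as a whole held 63699 peaks in sgCtrl and 50119 in sgSNHG1, of which 2845 and 2274 lay on chromosome 19. Within the 20 member clusters, which span 15.8 Mb, the total numbers were nearly equal, 379 in sgCtrl and 377 in sgSNHG1. This near equality rests largely on the cluster from *ZNF565* to *ZNF573*, which held 15 peaks in sgCtrl and 35 in sgSNHG1. Without that cluster the total was more clearly lower in sgSNHG1. On the rest of the chromosome the numbers were 2466 in sgCtrl and 1897 in sgSNHG1. Of 8 marker genes of adrenergic neuroblastoma, 6 had a promoter peak in sgCtrl and 8 in sgSNHG1, beside 65.1% and 64.2% of all protein-coding genes. The added ones were *DBH* and *DDC*, with fold enrichments of 3.07 and 3.05, and the 6 with a peak in both lists had a median log2 difference from all genes of -0.07. Of 6 marker genes of liver, blood, endothelial and keratinocyte cells 0 had one in either list.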

How the data were processed

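The authors aligned the H3K27ac reads to GRCh38 with BWA after trimming with cutadapt, pooled the 2 samples of each group, and ran MACS2 with a p-value threshold of 1e-06. Each list the authors deposited gives a fold enrichment (a ratio) over local background and a −log10 p-value, both from that peak caller. Read depth cannot be read from them. The study's text names no input library, so it is not known whether the local background was taken from one. Fragments over a summit were recovered from both values, assuming a pseudocount of 1 and a Poisson distribution, and were whole within 0.001 for 99.67% (sgCtrl) and 99.66% (sgSNHG1) of peaks.

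A gene's promoter value was its highest fold enrichment within 1000 bp of a start site of a protein-coding transcript in GENCODE release 44. Ratios were read against the median of all protein-coding genes. No test was run, and intervals (95%, Wilson for shares, exact binomial for fragment ratios) cover counting error only. Fingers and KRAB boxes were found by pattern in translated coding sequences of GENCODE, in place of RefSeq proteins.

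Named genes were the 8 highest sgCtrl promoters, the 5 largest ratios in each direction, members with a peak in 1 list only (at most 5 where above 10), the 8 highest 3′ peaks, the 3 members with the most fingers, 10 members of known role, the co-repressor list, and 5 members without a promoter peak. The members and lists were chosen with earlier results of these data known. Python 3.11.15, numpy 2.4.6, pandas 2.3.3 and scipy 1.17.1 were used, and the scripts were tested on simulated peaks. Alternatives were a stricter threshold, lists of equal size, and other windows and baselines.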

Additional observations from a re-analysis of the deposited data

How the results depend on the processing

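Of 53 recomputed values, 44 stayed within 1.5 times the reported one. With lists of equal size the order over the 3′ part turned among members on small counts, from 19 in sgCtrl and 17 in sgSNHG1 to 16 and 17. The counts in 1 list only went from 6 in sgCtrl and 4 in sgSNHG1 to 4 and 5. Over all genes the order stayed, from 32.2% and 25.2% to 26.9% and 25.2%. Their shares in 1 list only went from 9.36% and 2.36% to 5.92% and 4.19%. With the 5′ end of the gene as the one start site, the sgCtrl promoter share of members was 60.2% beside 58.2% of all genes, where it was 64.2% beside 65.1%. Requiring a peak to overlap a start site left 31 members in sgCtrl, 50 in sgSNHG1 and 4 in sgCtrl only, beside 32%, 33.5% and 4.12% of all genes. With lists of equal size 4 members had a promoter peak in sgCtrl only (1.63%, beside 2.82%). A −log10 p of at least 10 left 10 members with a 3′ peak in sgSNHG1 (4.07%, beside 19.8%), and keeping peaks near start sites gave 34 in sgCtrl and 33 in sgSNHG1 (13.8% and 13.4%, beside 38.4% and 31.5%). Against other genes of chromosome 19, the median log2 ratio was 0.045 in place of 0.11. Leaving out the cluster from *ZNF565* to *ZNF573*, an alternative chosen after seeing the data, left 12 members with a promoter peak in sgSNHG1 only (5.45%, beside 3.66%). The number with one in sgSNHG1 only was 16 (6.5%, beside 3.81% of all genes) to 27 (11%, beside 5.58%, with lists of equal size) under the other alternatives. No paired analysis was possible because each list pools both samples of its group, and for the same reason no sample could be left out. Lists per sample, the depth, the copy number and the mark where no peak was called are not known from the lists, and most member peaks rest on few fragments.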
